A study of Mus musculus with 8 samples.

Results

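The nuclei described here are tissue-resident macrophages of mouse visceral fat that carry transcripts of F13a1, Cd163, Timd4, Lyve1 or Vsig4, the genes by which macrophages lying along blood vessels are usually recognised. They were selected on these measured counts, barcode by barcode. A barcode had to hold at least 1000 unique molecular identifiers (UMIs, one per captured transcript), 300 or more genes and no more than 5% of its UMIs from mitochondria. It then had to show at least 3 of the 7 macrophage genes Adgre1, Csf1r, Mertk, Mrc1, Ctss, Lyz2 and Cd68, with more UMIs of Adgre1, Csf1r, Mertk and Mrc1 together than of adipocyte genes (Plin1, Plin4, Cidec), progenitor genes (Pdgfra, Dcn, Col3a1) or endothelial genes (Flt1, Ptprb, Cyyr1). Finally, it had to show at least 2 of the 5 resident genes, with more UMIs of them than of the 6 genes Gpnmb, Atp6v0d2, Mmp12, Trem2, Itgax and Myh15, which mark the lipid-associated macrophages of obese fat. This left 7726 barcodes of 77987 that passed the first step, or of 24184 macrophage barcodes.

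The study asked, by its title, how expression of the telomerase gene Tert relates to metabolic disorder, adipocyte formation and the macrophages of obese mice. Single-nucleus RNA was sequenced from frozen visceral white adipose tissue of 8 mice, 2 in each of 4 groups, and all mice carried mCherry on one copy of p21 (Cdkn1a), a gene of cell cycle arrest. The mCherry SD mice (genotype p21+/mCherry, rep144 and rep146) ate a standard diet, and the mCherry HFD mice (p21+/mCherry, rep128 and rep129) a high-fat diet. The Tert HFD mice (p21+/mCherry-Tert, rep134 and rep136) and the TertCi HFD mice (p21+/mCherry-TertCi, rep138 and rep140) ate the high-fat diet too. Both modified alleles sit at the p21 locus, the labels do not say how TertCi differs from Tert, and they give no age or sex. The series' design text has the p21 promoter driving both, and it speaks of the stromal vascular fraction and of p21+/- mice where the sample labels, followed here, give visceral fat and p21+/mCherry. Values of 2 mice are given in this order. Groups of 2 mice set how precisely any p-value below measures the spread between mice.

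Resident macrophages of fat hold long-lived positions beside vessels, take up debris and circulating macromolecules through scavenger and lectin receptors, handle iron and lipid, and secrete growth factors and complement. On a high-fat diet, fat also fills with lipid-associated macrophages, which gather around dying adipocytes and are rich in lysosomal and lipid-handling genes. F13a1 encodes the A chain of coagulation factor XIII, Cd163 the receptor for haemoglobin bound to haptoglobin, Lyve1 a hyaluronan receptor, Timd4 a receptor for phosphatidylserine on dying cells, and Vsig4 a receptor for complement fragments. Mrc1, the mannose receptor, is the sixth gene given for these cells.

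The members were nuclei from suspension, so that their position beside vessels was not measured, and the name was checked only against genes. With every barcode thinned to 1000 UMIs, F13a1 was seen in 92.3 and 93.5% of members under mCherry SD, 90.5 and 94.3% under mCherry HFD, 93.7 and 92.5% under Tert HFD and 95.6 and 92.7% under TertCi HFD. Cd163 was seen in 35.9 and 44.9%, 42.9 and 39.9%, 44.3 and 47.5% and 58.2 and 50% in the same order, and Mrc1 in 76.7 and 81.5%, 84.7 and 88.3%, 86.5 and 84.2% and 84.0 and 86.3%. F13a1 and Mrc1 were thus seen in most members of every mouse, while Cd163 ran from 35.9% to 58.2%. Lyve1 was rare, at 9.41 and 13.1%, 10.2 and 11.7%, 9.54 and 6.67% and 10.3 and 9.17% of members. In adipocyte progenitor barcodes, which should lack these genes and carry them only as free RNA, the shares were 4.94% to 15.3% for F13a1, 0.648% to 1.71% for Cd163, 2.85% to 10.7% for Mrc1 and 0.114% to 0.690% for Lyve1. The shares in members were above these in every mouse, and the choice of members favoured this for all 4 genes, since Mrc1 was one of the macrophage genes of the rule. The progenitor barcodes had to show fewer than 3 of the 7 macrophage genes. Their progenitor genes also had to outnumber the summed adipocyte genes, endothelial genes, and Adgre1, Csf1r, Mertk and Mrc1. That choice favoured a low share of Mrc1 in them.

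Timd4 and Vsig4 did not hold level across the groups. Timd4 was seen in 16.1 and 13.1% of members under mCherry SD, 2.88 and 3.53% under mCherry HFD, 6.04 and 7.50% under Tert HFD and 9.40 and 9.58% under TertCi HFD. Vsig4 was seen in 5.69 and 4.55%, 27.9 and 28.5%, 7.39 and 5.83% and 6.34 and 2.29%. Both mCherry HFD mice were the lowest for Timd4 and the highest for Vsig4, with no overlap with any other mouse. Summed over members, Timd4 stood at 169.8 and 114 CPM under mCherry SD, 25.0 and 49.4 under mCherry HFD, 59.2 and 71.7 under Tert HFD and 119 and 82.9 under TertCi HFD, where CPM is counts per 1000000 UMIs with trimmed-mean scaling between mice. Vsig4 stood at 36.2 and 47.4 CPM under mCherry SD, 276 and 223 under mCherry HFD, 73.7 and 31.5 under Tert HFD and 74.4 and 33.3 under TertCi HFD. Both genes served to choose the members, so these values are descriptions and were not tested. The label thus covers members of unlike makeup, since 34.4% and 39.1% of members lacked any Vsig4 UMI under mCherry HFD, against 87.1% and 84.4% under mCherry SD, 73.8% and 90.8% under Tert HFD and 81.6% and 89.4% under TertCi HFD.

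**Figure D1:**
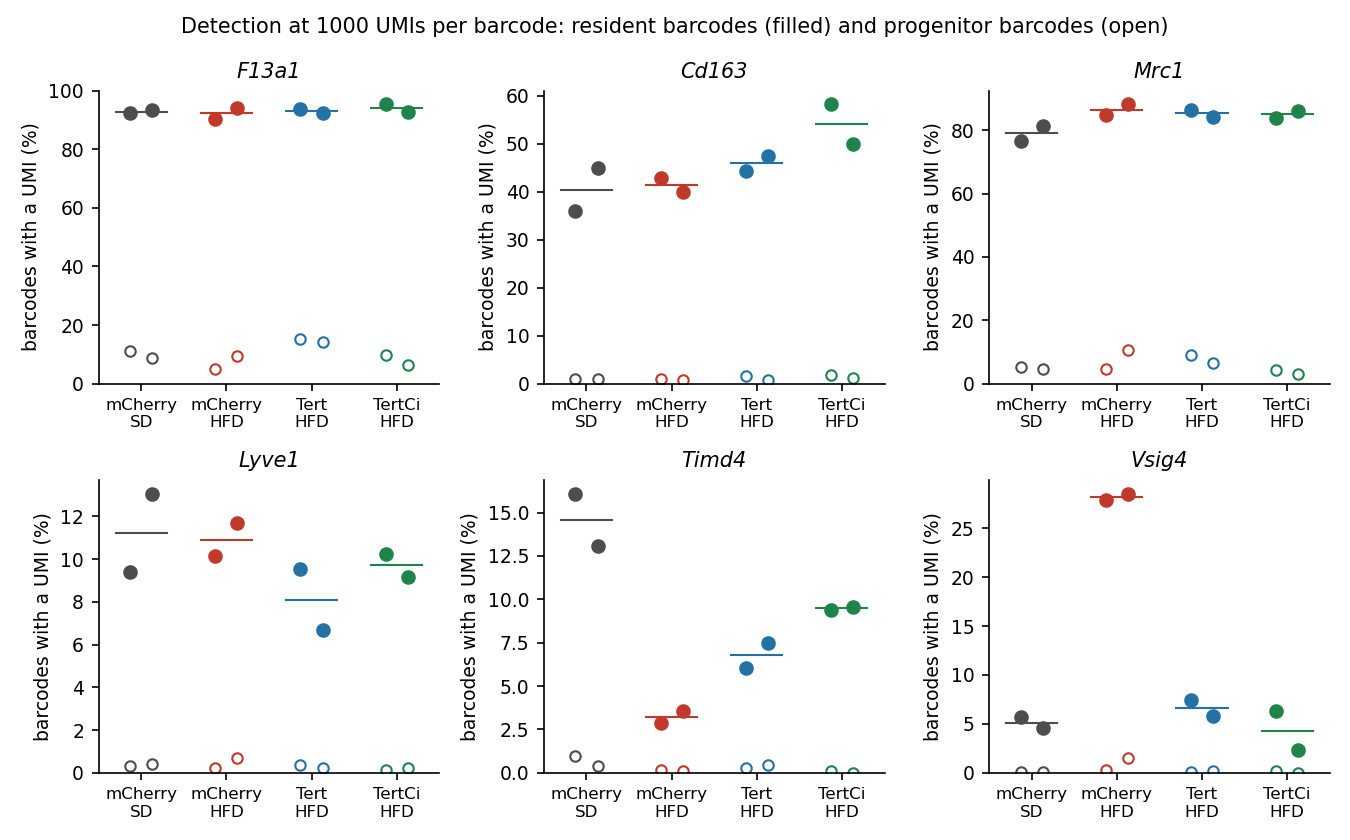
Share of barcodes with at least 1 UMI of each of 6 resident genes after thinning to 1000 UMIs (y axis, percent), per mouse, for the resident members (filled points) and for adipocyte progenitors of the same library (open points). F13a1 and Mrc1 were seen in most members of every mouse, whereas Vsig4 reached 27.9% and 28.5% in the mCherry HFD mice and at most 7.39% elsewhere.

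Among members, the commonest combination was F13a1 with Cd163 alone, in 2957 members (38.3%), followed by F13a1, Cd163 and Vsig4 in 980 (12.7%), F13a1, Cd163 and Lyve1 in 700 (9.06%), and F13a1 with Vsig4 in 614 (7.95%). Of all members, 4268 showed exactly 2 of the 5 genes, 2408 showed 3, and 1050 showed 4 or 5. Just outside the rule lay 7364 macrophage barcodes with 1 of the 5 genes and 1009 with 2 or more of them whose sum was below the lipid-associated sum, with 117 more at an equal sum. Just inside it, 153 members passed that comparison by a margin of 1 UMI. The median level of Mrc1 over the mice was 2056 CPM in members with 3 or more of the 5 genes, 2059 CPM in those with 2, 1477 CPM in macrophage barcodes with 1 and 662 CPM in those with none. Folr2, the folate receptor of resident macrophages, went through 73.0, 47.2, 31.7 and 11.4 CPM along the same steps, and Lpl, which encodes lipoprotein lipase, through 270.4, 241, 427 and 793 CPM.

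Some members carried transcripts of other programmes. At least 1 UMI of the 6 lipid-associated genes was present in 79.7% and 76.1% of members of the mCherry HFD mice, 38.0% and 30.0% of the Tert HFD, 19.5% and 15.2% of the TertCi HFD, and 9.65% and 6.90% of the mCherry SD mice. Over all mice, 3391 members (43.9%) held such a UMI. These shares were taken without thinning, while depth differed between the mice. Under mCherry HFD each of the 6 genes was lower in members than in free RNA. Gpnmb, for one, averaged 224 CPM in members and 986 CPM in free RNA there. The parts of depth and free RNA in these shares were not tested. At least 2 markers of large peritoneal macrophages, the cells of the abdominal cavity that can adhere to visceral fat, were present in 330 members (4.27%), and most often in the mCherry SD mice, at 13.1% and 8.52%. A UMI of the 9 adipocyte, progenitor or endothelial genes of the rule was present in 5369 members (69.5%). No doublet caller was run, and 14 members shared their barcode letters with a member of another library.

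Depth and free RNA differed between the libraries. Library totals ran from 23378488 to 139749876 UMIs, members per mouse from 120 (Tert HFD rep136) to 2394 (mCherry HFD rep128), the UMIs summed over a mouse's members from 351976 to 13101703, and the median per member from 2177 to 4278. Nuclei of frozen tissue are bathed in RNA from broken cells, which was read from barcodes of at most 100 UMIs. Measured by adipocyte, progenitor, endothelial and mesothelial markers, it made up an estimated 27.2% to 57.8% of the members' UMIs, least in TertCi HFD rep138 and most in mCherry SD rep144. Summed adipocyte markers in members stood at 9655 and 5764 CPM under mCherry SD, 403 and 462 under mCherry HFD, 1993 and 3832 under Tert HFD, and 3353 and 2909 under TertCi HFD, and moved with the groups. Library-wide, Tert RNA was at 3.52 and 3.98 CPM under mCherry SD and 3.27 and 3.58 under mCherry HFD. It was at 2.66 and 2.01 CPM under Tert HFD and 2.76 and 2.48 under TertCi HFD. Tert RNA was thus lower in each library labelled with a Tert or TertCi allele than in the other libraries. It did not bear out the labels, and the cause was not tested. The members held 0 to 19 Tert UMIs a mouse, too few for such a check, and 1 member UMI mapped to mCherry in all. Cdkn1a, the gene of the modified locus, was at 1.49 and 0.633 CPM under mCherry SD, 6.66 and 4.49 under mCherry HFD, 4.13 and 2.87 under Tert HFD and 2.28 and 1.81 under TertCi HFD in members.

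Compared with the other macrophage barcodes of the same mice, members were rich in C-type lectins of the SIGN family, which bind sugars on microbes and glycoproteins. These differences describe the chosen cells and were not tested. Cd209g averaged 43.3 CPM over the 8 mice in members against 8.46 CPM in the other macrophages, Cd209f 50.2 against 10.7, Cd209b 77.1 against 19.9 and Cd209d 51.0 against 16.1. The genes named here come from the 20 with the largest ratio among genes at 20 CPM or more in members. They had to be higher in members in 8 of 8 mice, so that this agreement was fixed by the choice. C6, a component of the membrane attack complex of complement, stood at 66.7 against 16.9 CPM. Ednrb, the endothelin B receptor, stood at 425 against 128.1 CPM, Enpep, an aminopeptidase that trims angiotensin, at 91.1 against 28.1 CPM, and Pf4, a chemokine also known from platelets, at 31.1 against 11.9 CPM. Retnla, a secreted product of alternatively activated macrophages, stood at 331 against 113 CPM, and Cd38, an ectoenzyme that consumes NAD, at 153 against 55.1 CPM. Tlr5, the flagellin receptor, stood at 41.2 against 16.3 CPM, and Ddx60, an interferon-induced helicase, at 374 against 145 CPM. In the other direction, Ksr2, a scaffold of the Raf and MEK kinases, was at 12.6 CPM in members against 86.0, F7, coagulation factor VII, at 6.48 against 38.8, and the ubiquitin ligase Rnf128 at 15.5 against 68.5. These were likewise taken from genes required to be lower in members in 8 of 8 mice.

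Members also varied among themselves by the marker they carried, again as a description without a test. Those with a Timd4 UMI had more C6 (182 against 57.5 CPM), more Colec12, a scavenger receptor with a collagen-like stalk (535 against 308 CPM) and less of the MHC class II gene H2-Ab1 (42.8 against 95.7 CPM) than those without. Those with a Lyve1 UMI had more Retnla (836 against 312 CPM), more of the chemokine Ccl6 (311 against 167 CPM) and more of the MHC class I genes H2-D1 (207 against 99.2 CPM) and B2m (236 against 143.7 CPM). Those with a Vsig4 UMI had more Ms4a7, a tetraspan protein of macrophages (229.8 against 146.3 CPM), and more Tgfbi, a matrix protein induced by TGF-beta (259 against 167 CPM). Those with a Cd163 UMI had more Stat2, a transducer of interferon signals (77.0 against 48.8 CPM), and Ms4a4a (130.4 against 92.7 CPM). Members with an MHC class II UMI had more Ciita, the activator of those genes (284 against 139.5 CPM), more Ccr2, the receptor that draws monocytes into tissue (96.6 against 43.0 CPM), and more of the beta-glucan receptor Clec7a (65.4 against 26.3 CPM). These levels are unweighted means over the mice after thinning each member to 1000 UMIs, and some rest on few members. In Tert HFD rep136 only 9 members had a Timd4 UMI, 8 a Lyve1 UMI and 7 a Vsig4 UMI. Over all mice, members with a Timd4 UMI held 62 UMIs of C6. The genes were taken from those with the largest ratios that went the same way in every mouse, so that agreement was fixed by the choice.

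The share of members among macrophages was lowest in the mCherry HFD mice under the rule of at least 2 resident genes, though not when 3 were required. Members made up 58.2% and 64.1% of macrophage barcodes under mCherry SD, 19.5% and 20.4% under mCherry HFD, 46.5% and 28.8% under Tert HFD, and 49.8% and 45.3% under TertCi HFD. The 4 groups did not overlap except Tert HFD with TertCi HFD, and the groups differed (exact permutation test of F over all arrangements of the 8 mice, one-sided, p = 0.019, where the smallest possible is 0.00952). The group means were 61.1% ± 4.14 (SD, n = 2) for mCherry SD, 19.96% ± 0.639 for mCherry HFD, 37.6% ± 12.5 for Tert HFD and 47.5% ± 3.20 for TertCi HFD. The rule itself took part in this, since 802 and 97 of the 1009 barcodes left out for their lipid-associated sum came from the mCherry HFD mice. Without that step, a setting chosen after seeing the data, the shares were 58.4% and 64.3%, 26.8% and 26.3%, 48.5% and 29.5%, and 51.1% and 45.7% in the order of the groups (exact permutation p = 0.019), and the diet difference was -1.21 on the log2 scale. With it, the diet difference was -1.61, that of Tert against mCherry HFD 0.87, that of TertCi against mCherry HFD 1.25 and that of Tert against TertCi -0.38. A pair of groups alone cannot give a two-sided p below 0.333.

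Part of this share was set by the lipid-associated macrophages in the denominator, which numbered 7 and 14 barcodes under mCherry SD, 7667 and 991 under mCherry HFD, 727 and 78 under Tert HFD, and 318 and 122 under TertCi HFD. Of all passing barcodes, members made up 6.34% and 6.96% under mCherry SD, 10.9% and 8.11% under mCherry HFD, 15.2% and 3.71% under Tert HFD, and 9.30% and 9.34% under TertCi HFD. The groups overlapped and no difference was called (exact permutation test of F, one-sided, p = 0.886). The mCherry SD mice were the lowest but for Tert HFD rep136. When at least 3 of the 5 resident genes were required, the share of macrophages came to means of 25.0%, 11.4%, 11.9% and 15.5% in the same order of groups and was no longer called (exact permutation p = 0.305). The mCherry HFD mice, at 11.4% and 11.5%, then lay between the 2 Tert HFD mice, at 18.1% and 5.76%, and the mean log2 difference of Tert against mCherry HFD turned from 0.87 to -0.16. With a UMI minimum set per library the p was 0.0571. Fewer nuclei of a type and less RNA per nucleus cannot be told apart in a share that rests on detected genes.

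**Figure D2:**
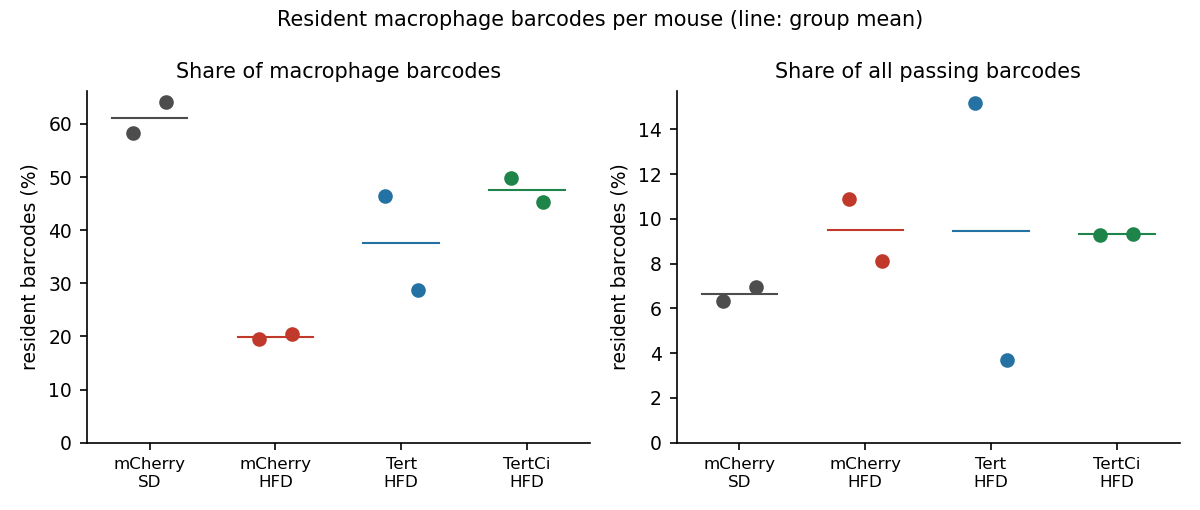
Members as a percentage of macrophage barcodes (left panel) and of all passing barcodes (right panel), y axes in percent, 1 point per mouse, with the line at the group mean. Of macrophage barcodes the mCherry HFD mice lay at 19.5% and 20.4%, below all other mice, while of all passing barcodes the groups overlapped.

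Gene expression was compared on UMIs summed over the members of each mouse. One edgeR quasi-likelihood fit of all 8 mice gave log2 fold changes with standard errors, and a gene is called when its p adjusted by Benjamini-Hochberg over 13602 genes is below 0.05. The 27 genes of the rule were left out. With diet (mCherry HFD against mCherry SD) 3853 genes were called, 28.3% of those tested, with 2040 higher (15.0%) and 1813 lower (13.3%) in the mCherry HFD mice. For Tert HFD against mCherry HFD 1186 were called (8.72%), 521 higher (3.83%) and 665 lower (4.89%). For TertCi HFD against mCherry HFD 2652 were called (19.5%), 1219 higher (8.96%) and 1433 lower (10.5%). These 3 comparisons share the mCherry HFD mice, so that a gene high or low in those 2 mice moves in all of them, and their values are given side by side only. Per-mouse levels of the 2 groups did not overlap for 9285 genes with diet (68.3%), 7450 with Tert (54.8%) and 8631 with TertCi (63.5%).

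These counts rested on single mice and on scaling. Without mCherry HFD rep128, the deepest library, they were 1326 for diet, 117 for Tert and 568 for TertCi, and without mCherry HFD rep129 they were 2936, 577 and 1542. The diet count was 2397 without mCherry SD rep144. The Tert count was 410 without Tert HFD rep134 and 703 without rep136, and the TertCi count was 1346 without TertCi HFD rep138 and 1388 without rep140. With trimmed-mean scaling 52.9% of the diet calls, 43.9% of the Tert calls and 46.0% of the TertCi calls were higher. Without it the shares were 70.3%, 30.6% and 22.9%, as the median change over all genes moved to 0.25, -0.12 and -0.25. Of the calls of named and listed genes 176 held without this scaling, 30 were lost and 0 reversed.

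Free RNA differed between the same libraries. When its estimated part was subtracted from every mouse, edgeR called 0 genes in any comparison, with 1241, 543 and 820 genes at an unadjusted p below 0.05 for diet, Tert and TertCi and 154 for Tert against TertCi. The genes described first are therefore those whose level in members was at least 2 times that in free RNA on average over the mice and at least 10 CPM, of which 516 were tested. Of these, 48 (9.30%) were called with diet in the fit of all genes and again after subtraction among the 516 alone, 28 higher (5.43%) and 20 lower (3.88%) in the mCherry HFD mice. The counts were 30 for Tert (5.81%), 16 higher (3.10%) and 14 lower (2.71%), and 74 for TertCi (14.3%), 52 higher (10.1%) and 22 lower (4.26%). The groups compared did not overlap for any of these genes, which their choice by calls between the same groups made likely. Over all 13602 tested genes the shares without overlap were 68.3% with diet, 54.8% with Tert and 63.5% with TertCi. In members without any Vsig4 UMI 45, 27 and 66 of them were called as well. Unnamed transcripts made up 21, 12 and 23 of them. The balance of diet calls in a test of the 516 alone depended on subtraction. It was 57 higher and 6 lower before subtraction and 28 higher and 35 lower after it. A gene could enter the 516 through the mice where it was high alone, which made a difference likely for that gene. Among the 516, calls named below that did not pass again after subtraction are the diet calls of Fcna, Cd209g, Enpep, Ddx60, Arsg, Ifi213, Selenop and C5ar1, the Tert calls of C6, Bank1 and Hrh1, and the TertCi calls of Arsg and Foxred2.

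A first set of genes was higher in the mCherry HFD members than in the mCherry SD members. Ccl8, a chemokine that draws monocytes and T cells, stood at 1.99 and 4.11 CPM under mCherry SD, 94.1 and 132 under mCherry HFD, 31.4 and 2.87 under Tert HFD and 8.67 and 8.47 under TertCi HFD. The 2 mCherry HFD mice were the highest, and the diet change on the log2 scale was 5.10 ± 0.53 (SE, adjusted p = 0.000121). Ccl8 reached the minimum mean level of the genes described first only through these 2 mice. Its mean over the other mice lay below that minimum, so that its choice favoured a difference. Against mCherry HFD the change was -2.12 ± 0.42 (adjusted p = 0.0148) with Tert and -3.70 ± 0.46 (adjusted p = 0.000728) with TertCi. Free RNA held Ccl8 at 1.30, 59.1, 9.35 and 2.73 CPM in the 4 groups in the same order, and its part in the result was not tested. Fcna, the macrophage ficolin that starts the lectin pathway of complement, was at 14.4 and 17.1 CPM under mCherry SD, 66.8 and 29.2 under mCherry HFD, 13.6 and 2.87 under Tert HFD and 16.0 and 7.26 under TertCi HFD. Free RNA held Fcna at 4.87, 18.2, 3.05 and 2.64 CPM by group, highest in the mCherry HFD libraries too. In mCherry HFD rep128 Fcna in members was more than 2 times as high as in rep129. The changes of Fcna were 1.66 ± 0.46 (adjusted p = 0.0211) with diet, -2.05 ± 0.49 (adjusted p = 0.0307) with Tert and -2.00 ± 0.46 (adjusted p = 0.0145) with TertCi. The Tert call of Ccl8 was lost without either mCherry HFD mouse (-2.40 and -1.91). For Fcna the diet call was lost without mCherry HFD rep128 (0.88) or either mCherry SD mouse (1.56 and 1.77), the Tert call without either Tert HFD mouse (-4.12 and -1.89) or mCherry HFD rep128 (-1.30) and the TertCi call without TertCi HFD rep140 (-1.66) or mCherry HFD rep128 (-1.23).

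C6 was at 45.2 and 29.7 CPM under mCherry SD, 114 and 149 under mCherry HFD, 59.5 and 51.6 under Tert HFD and 33.8 and 28.4 under TertCi HFD. The mCherry HFD mice lay above all others, and the change was 1.81 ± 0.24 (adjusted p = 0.000162) with diet, -1.18 ± 0.24 (adjusted p = 0.0112) with Tert and -2.04 ± 0.24 (adjusted p = 0.0002) with TertCi. Free RNA held C6 at 45.1, 23.0, 19.1 and 15.4 CPM in the 4 groups, highest in the mCherry SD mice and so in another order than the members. Under mCherry SD the mean of 37.5 CPM in members lay below free RNA. C6 reached 2 times free RNA on average only through the mCherry HFD mice, so its choice favoured a difference. The part of free RNA in its changes was not tested. Hpse, the heparanase that cuts heparan sulfate of the extracellular matrix, stood at 23.3 and 16.4 CPM under mCherry SD, 65.0 and 81.9 under mCherry HFD, 50.3 and 57.3 under Tert HFD and 26.0 and 27.2 under TertCi HFD. It rose with diet by 1.89 ± 0.25 (adjusted p = 0.000155) and changed by -1.45 ± 0.24 (adjusted p = 0.00144) with TertCi, while the Tert HFD mice lay between, with a change of -0.47 ± 0.24 (adjusted p = 0.268). Cd209g, one of the lectins that were high in members against other macrophages, was at 22.3 and 30.7 CPM under mCherry SD, 79.5 and 57.8 under mCherry HFD, 63.1 and 25.8 under Tert HFD and 34.2 and 23.0 under TertCi HFD. Its changes were 1.38 ± 0.32 (adjusted p = 0.00763) for diet and -1.24 ± 0.32 (adjusted p = 0.0179) for TertCi. With Tert it was -0.40 ± 0.32 (adjusted p = 0.516), which did not pass the test, and Tert HFD rep134 lay among the mCherry HFD mice. Free RNA was highest in the mCherry HFD libraries for both, with 4.90, 18.7, 13.5 and 6.41 CPM by group for Hpse and 8.44, 22.6, 13.3 and 7.37 CPM for Cd209g. The Tert call of C6 was lost without Tert HFD rep134 (-1.33) or either mCherry HFD mouse (-1.38 and -0.99). The diet call of Cd209g was lost without mCherry HFD rep128 (1.11) or mCherry SD rep144 (1.19), and its TertCi call without TertCi HFD rep140 (-1.04) or mCherry HFD rep128 (-0.98).

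Tlr8, an endosomal sensor of single-stranded RNA, stood at 23.3 and 27.5 CPM under mCherry SD, 98.8 and 67.3 under mCherry HFD, 52.8 and 31.5 under Tert HFD and 48.6 and 40.5 under TertCi HFD, and rose with diet by 1.72 ± 0.26 (adjusted p = 0.000445). Ms4a7 was at 44.2 and 67.7 CPM under mCherry SD, 278 and 159 under mCherry HFD, 160.4 and 126 under Tert HFD and 119 and 107 under TertCi HFD, a diet change of 1.97 ± 0.28 (adjusted p = 0.000622). Ms4a6d, another tetraspan protein of the same family, was at 37.7 and 46.2 CPM under mCherry SD, 110.3 and 120.0 under mCherry HFD, 65.4 and 71.7 under Tert HFD and 80.1 and 56.2 under TertCi HFD, a diet change of 1.44 ± 0.21 (adjusted p = 0.000358). For these 3 genes the mCherry SD mice were the lowest of the 8 and the mCherry HFD mice included the highest. Free RNA held Ms4a7 at 9.61, 147, 48.2 and 18.5 CPM and Tlr8 at 4.15, 41.1, 19.6 and 11.6 CPM by group, also highest in the mCherry HFD libraries. Tslp, a cytokine known from epithelia, was at 15.9 and 16.8 CPM under mCherry SD, 66.4 and 43.2 under mCherry HFD, 37.8 and 25.8 under Tert HFD and 44.0 and 20.0 under TertCi HFD. Its diet change was 1.78 ± 0.35 (adjusted p = 0.00311), and the call was lost without mCherry HFD rep128 (1.40). The 3 genes Tlr8, Ms4a7 and Ms4a6d were chosen after their values were seen.

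Gvin3, of the very large interferon-inducible GTPases, was at 13.9 and 12.0 CPM under mCherry SD, 33.5 and 40.9 under mCherry HFD, 20.9 and 14.3 under Tert HFD and 19.2 and 9.68 under TertCi HFD. It changed by 1.51 ± 0.33 (adjusted p = 0.00421) with diet and -1.26 ± 0.32 (adjusted p = 0.0148) with TertCi, where the call was lost without TertCi HFD rep140 (-0.95) or either mCherry HFD mouse (-1.43 and -1.14). Ddx60 stood at 279 and 238 CPM under mCherry SD, 419.8 and 455 under mCherry HFD, 507 and 396 under Tert HFD and 339 and 323 under TertCi HFD, with a diet change of 0.76 ± 0.16 (adjusted p = 0.00308). Both Tert HFD mice stayed near the mCherry HFD mice for Ddx60. Enpep was at 64.5 and 59.2 CPM under mCherry SD, 112 and 123 under mCherry HFD, 111 and 94.6 under Tert HFD and 99.2 and 53.2 under TertCi HFD, with a diet change of 0.92 ± 0.24 (adjusted p = 0.0138) that was lost without either mCherry HFD mouse (0.99 and 0.85) or mCherry SD rep146 (0.83). Arsg, a lysosomal sulfatase, was at 35.7 and 33.8 CPM under mCherry SD, 53.9 and 61.1 under mCherry HFD, 53.4 and 34.4 under Tert HFD and 34.0 and 28.4 under TertCi HFD. It changed by 0.72 ± 0.23 (adjusted p = 0.034) with diet and -0.85 ± 0.23 (adjusted p = 0.0214) with TertCi, and the diet call was lost without either mCherry HFD mouse (0.81 and 0.63) or either mCherry SD mouse (0.75 and 0.65) and the TertCi call without either TertCi HFD mouse (-1.01 and -0.77) or either mCherry HFD mouse (-0.95 and -0.77). After subtraction of free RNA among the 516 genes, the diet change was 0.46 for Ddx60 and 0.81 for Enpep, and neither was called. Ifi213, an interferon-inducible gene, rose with diet by 1.17 ± 0.35 (adjusted p = 0.0229), a call lost without either mCherry HFD mouse (1.10 and 1.20) or either mCherry SD mouse (1.30 and 0.99).

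Hsf3, a member of the heat shock factor family, stood at 18.9 and 25.6 CPM under mCherry SD, 212 and 204 under mCherry HFD, 45.5 and 17.2 under Tert HFD and 53.6 and 22.4 under TertCi HFD. Its change was 3.20 ± 0.40 (adjusted p = 0.000593) with diet, -2.41 ± 0.40 (adjusted p = 0.00948) with Tert and -2.38 ± 0.38 (adjusted p = 0.00359) with TertCi, and the Tert call was lost without mCherry HFD rep128 (-2.41). In RefSeq the gene is the neighbour of Vsig4 on the X chromosome, and Vsig4 was used to choose the members. In members without a Vsig4 UMI the changes were 2.33, -1.84 and -1.75. Free RNA held Hsf3 at 19.6, 35.7, 18.4 and 17.0 CPM by group, highest in the mCherry HFD libraries too. Hsf3 reached 2 times free RNA on average only through the mCherry HFD mice, so its choice favoured a difference.

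**Figure D3:**
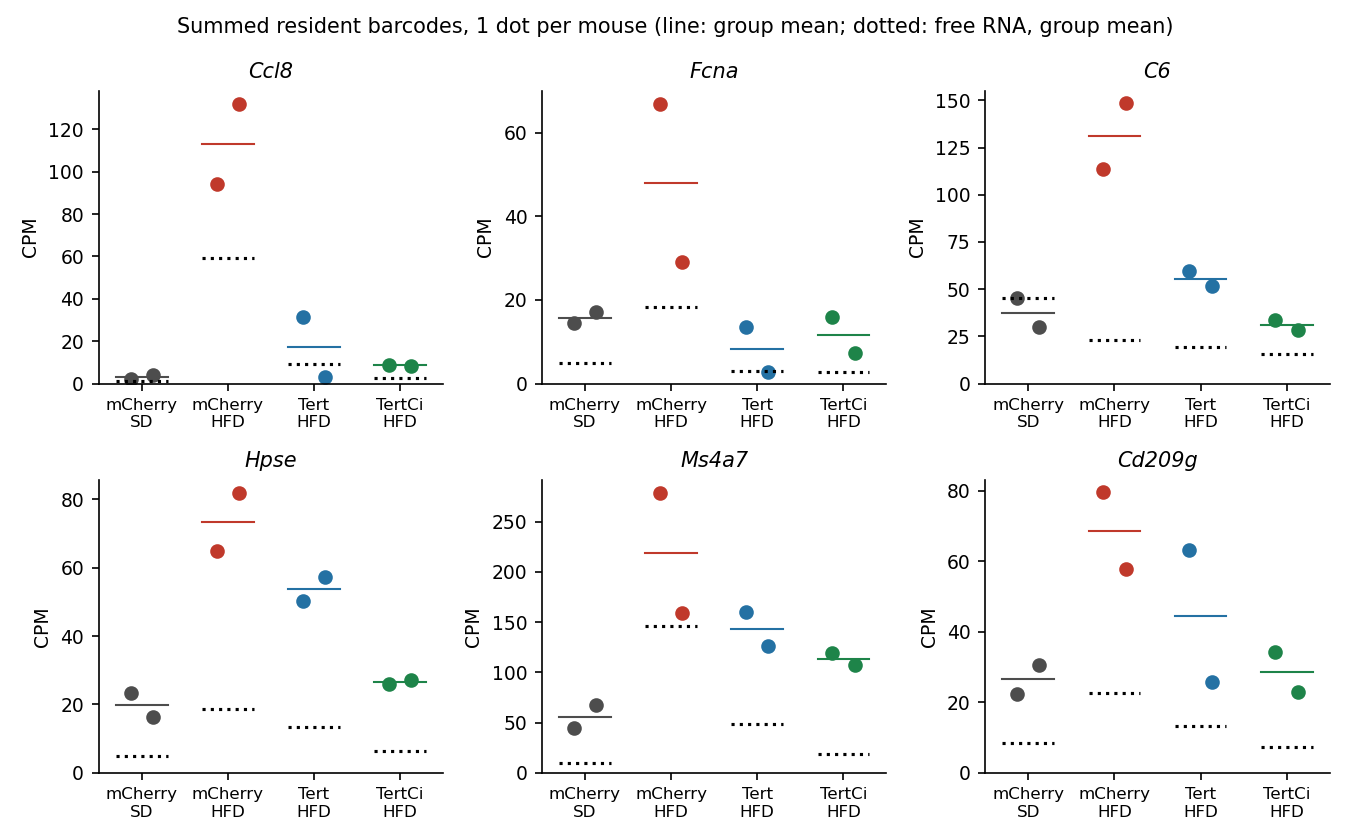
Level in members (y axes, CPM) of Ccl8, Fcna, C6, Hpse, Ms4a7 and Cd209g, 1 point per mouse, with solid lines at group means and dotted lines at the mean level in free RNA. In each panel the mCherry HFD points lie above both mCherry SD points, and the free RNA line rises from the mCherry SD to the mCherry HFD libraries in each panel but that of C6.

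A second set was lower in the mCherry HFD members. Bank1, an adaptor of receptor signalling best known from B cells, stood at 525 and 628 CPM under mCherry SD, 264 and 283 under mCherry HFD, 405 and 393 under Tert HFD and 726 and 597 under TertCi HFD. The mCherry HFD mice were the lowest, and the changes were -1.08 ± 0.15 (adjusted p = 0.000253) with diet, 0.55 ± 0.15 (adjusted p = 0.0429) with Tert and 1.28 ± 0.15 (adjusted p = 0.000206) with TertCi. The Tert call of Bank1 was lost without either Tert HFD mouse (0.52 and 0.57) or either mCherry HFD mouse (0.50 and 0.60), and also after subtraction. Of the 8 listed B lineage markers, Pax5 was tested as well, at 0 to 18.4 CPM in members over the mice, with a diet change of -1.36 ± 0.81 (adjusted p = 0.242). The other 6 were under 5 CPM in each mouse, Mzb1 at 0, and the part of B cells in the level of Bank1 was not tested. Aff3, a nuclear protein of transcription elongation, was at 794 and 733 CPM under mCherry SD, 506 and 384 under mCherry HFD, 865 and 1041 under Tert HFD and 1168 and 1004 under TertCi HFD. Its changes were -0.77 ± 0.16 (adjusted p = 0.00373), 1.08 ± 0.17 (adjusted p = 0.00232) and 1.28 ± 0.17 (adjusted p = 0.000325) in the 3 comparisons, and the diet call was lost without mCherry HFD rep129 (-0.59). In free RNA the group means ran 293, 138.4, 257 and 282 CPM for Aff3 and 228, 121, 109 and 145 CPM for Bank1.

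Bcor, a corepressor of BCL6 and part of a polycomb complex, was at 179.7 and 221 CPM under mCherry SD, 123 and 108 under mCherry HFD, 236 and 238 under Tert HFD and 264 and 301 under TertCi HFD. Its changes were -0.79 ± 0.16 (adjusted p = 0.00292), 1.03 ± 0.17 (adjusted p = 0.00303) and 1.28 ± 0.16 (adjusted p = 0.000268), and no call was lost when any 1 mouse was left out. For Bcor, as for Aff3, the mCherry HFD mice lay lowest and all mice with a Tert or TertCi allele lay above the mCherry SD mice. Serpinb8, an intracellular protease inhibitor, was at 168 and 177 CPM under mCherry SD, 111 and 101 under mCherry HFD, 179.6 and 126 under Tert HFD and 234 and 229 under TertCi HFD. It changed by -0.69 ± 0.17 (adjusted p = 0.00861) with diet and 1.12 ± 0.17 (adjusted p = 0.000937) with TertCi, with Tert HFD rep136 between the mCherry HFD and mCherry SD mice. The diet call of Serpinb8 was lost without either mCherry HFD mouse (-0.77 and -0.63). Bcor was chosen after its values were seen.

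Mgl2, the galactose-binding lectin CD301b, was at 42.7 and 73.7 CPM under mCherry SD, 32.3 and 28.6 under mCherry HFD, 115 and 97.5 under Tert HFD and 76.7 and 121 under TertCi HFD. Its changes were -0.93 ± 0.28 (adjusted p = 0.027) with diet, 1.82 ± 0.29 (adjusted p = 0.0035) with Tert and 1.66 ± 0.28 (adjusted p = 0.00211) with TertCi, so that all mice with a Tert or TertCi allele lay above the other 4. The diet call of Mgl2 was lost without either mCherry HFD mouse (-1.04 and -0.86) or mCherry SD rep146 (-0.50), and the Tert call without Tert HFD rep134 (1.66) or mCherry HFD rep128 (1.92). Mctp1, a calcium-binding membrane protein, was abundant in all mice, at 2710.4 and 3281 CPM under mCherry SD, 2158 and 1775 under mCherry HFD, 3624 and 2706 under Tert HFD and 4518 and 3324 under TertCi HFD. Its changes were -0.61 ± 0.19 (adjusted p = 0.0312), 0.69 ± 0.19 (adjusted p = 0.0421) and 1.00 ± 0.19 (adjusted p = 0.00406). The diet call of Mctp1 was lost without either mCherry HFD mouse (-0.76 and -0.47) or mCherry SD rep146 (-0.49) and the Tert call without Tert HFD rep134 (0.46) or either mCherry HFD mouse (0.84 and 0.56). Psd3, an activator of small GTPases, changed by -0.44 ± 0.15 (adjusted p = 0.0434) with diet, 0.66 ± 0.15 (adjusted p = 0.0176) with Tert and 0.73 ± 0.15 (adjusted p = 0.0052) with TertCi. The diet call of Psd3 was lost without either Tert HFD mouse (-0.44 and -0.44), either mCherry HFD mouse (-0.39 and -0.49) or mCherry SD rep146 (-0.26), and the Tert call without either Tert HFD mouse (0.66 and 0.66) or either mCherry HFD mouse (0.61 and 0.71). Cfap299 was lower with diet by the test of all mice (-0.91 ± 0.31, adjusted p = 0.0444), a call lost without either mCherry HFD mouse (-1.06 and -0.83) or either mCherry SD mouse (-0.92 and -0.93). Zswim6 was lower too (-0.47 ± 0.14, adjusted p = 0.0233), and that call was lost without either mCherry HFD mouse (-0.46 and -0.49) or mCherry SD rep146 (-0.33). BC035044 was at 31.3 and 57.9 CPM under mCherry SD, 16.3 and 15.1 under mCherry HFD, 48.0 and 28.7 under Tert HFD and 71.0 and 81.0 under TertCi HFD, with -1.51 ± 0.30 (adjusted p = 0.00262) for diet and 2.25 ± 0.30 (adjusted p = 0.000419) for TertCi.

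Another set differed between the mice with a Tert or TertCi allele and the mCherry HFD mice, with no call for diet but for Snx29. Tfrc, the transferrin receptor that brings iron into cells, stood at 213 and 202 CPM under mCherry SD, 184 and 170.5 under mCherry HFD, 517 and 482 under Tert HFD and 379 and 497 under TertCi HFD. The 4 Tert HFD and TertCi HFD mice all lay above the 4 other mice. The Tert change was 1.498 ± 0.16 (adjusted p = 0.000249), the TertCi change 1.30 ± 0.16 (adjusted p = 0.000228) and the diet change -0.23 ± 0.16 (adjusted p = 0.307). Gfra2, a receptor for neurturin of the GDNF family, was at 163 and 195 CPM under mCherry SD, 169 and 139.6 under mCherry HFD, 318 and 315 under Tert HFD and 322 and 345 under TertCi HFD, with 1.03 ± 0.16 (adjusted p = 0.00242) for Tert and 1.10 ± 0.16 (adjusted p = 0.00059) for TertCi. The Tert and TertCi calls of Tfrc and Gfra2 held in each of 21 settings, all but subtraction over all genes. P3h2, a prolyl hydroxylase of collagens, was at 379 and 429 CPM under mCherry SD, 405 and 210.3 under mCherry HFD, 759.6 and 665 under Tert HFD and 965 and 771 under TertCi HFD. Its changes were 1.20 ± 0.27 (adjusted p = 0.026) for Tert and 1.48 ± 0.27 (adjusted p = 0.00544) for TertCi, and the Tert call was lost without either Tert HFD mouse (1.09 and 1.29) or mCherry SD rep144 (1.20). In free RNA the group means were 44.2, 61.1, 123 and 73.4 CPM for Tfrc, 35.0, 35.6, 62.1 and 53.7 CPM for Gfra2 and 74.0, 89.0, 151 and 135 CPM for P3h2. Each was thus also higher there in the Tert HFD and TertCi HFD libraries than in the mCherry HFD libraries.

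Hrh1, the histamine H1 receptor, was at 186 and 244 CPM under mCherry SD, 164 and 159 under mCherry HFD, 287 and 292 under Tert HFD and 283 and 344 under TertCi HFD. It changed by 0.84 ± 0.17 (adjusted p = 0.0102) with Tert and 0.96 ± 0.17 (adjusted p = 0.00197) with TertCi, and the Tert call was lost without Tert HFD rep134 (0.86) or either mCherry HFD mouse (0.86 and 0.82). Dse, an epimerase that shapes dermatan sulfate, was at 495 and 496 CPM under mCherry SD, 434 and 407 under mCherry HFD, 673 and 651 under Tert HFD and 729 and 713 under TertCi HFD. It changed by 0.66 ± 0.13 (adjusted p = 0.0096) and 0.78 ± 0.13 (adjusted p = 0.00157), and the Tert call was lost without Tert HFD rep134 (0.63) or either mCherry HFD mouse (0.71 and 0.61). Dse was chosen after its values were seen. ENSMUSG00000120253, a transcript without a symbol, was at 2.48 and 4.43 CPM under mCherry SD, 7.85 and 3.93 under mCherry HFD, 60.8 and 43.0 under Tert HFD and 35.6 and 65.9 under TertCi HFD. It was low in every mouse without a Tert or TertCi allele, and it changed by 3.03 ± 0.39 (adjusted p = 0.000947) with Tert and 2.87 ± 0.38 (adjusted p = 0.000465) with TertCi, with the Tert call lost without Tert HFD rep134 (2.67). Its mean over the mice without these alleles lay below the 10 CPM minimum of the genes described first, so its choice favoured a difference. ENSMUSG00000120731, another transcript without a symbol, changed by 2.77 ± 0.47 (adjusted p = 0.0127) with Tert and 2.84 ± 0.47 (adjusted p = 0.00544) with TertCi, and its Tert call was lost without Tert HFD rep134 (2.18) or either mCherry HFD mouse (3.48 and 2.48). Free RNA moved the same way, at 1.28, 1.56, 9.03 and 9.53 CPM by group for ENSMUSG00000120253 and 0.954, 2.58, 17.9 and 10.8 CPM for ENSMUSG00000120731. Snx29, a sorting nexin, changed by 0.61 ± 0.14 (adjusted p = 0.0182) and 0.67 ± 0.14 (adjusted p = 0.00576), and its mCherry HFD mice lay above both mCherry SD mice, with a diet change of 0.49 ± 0.14 (adjusted p = 0.0186). The Tert call of Snx29 was lost without either Tert HFD mouse (0.64 and 0.59) or either mCherry HFD mouse (0.66 and 0.57).

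**Figure D4:**
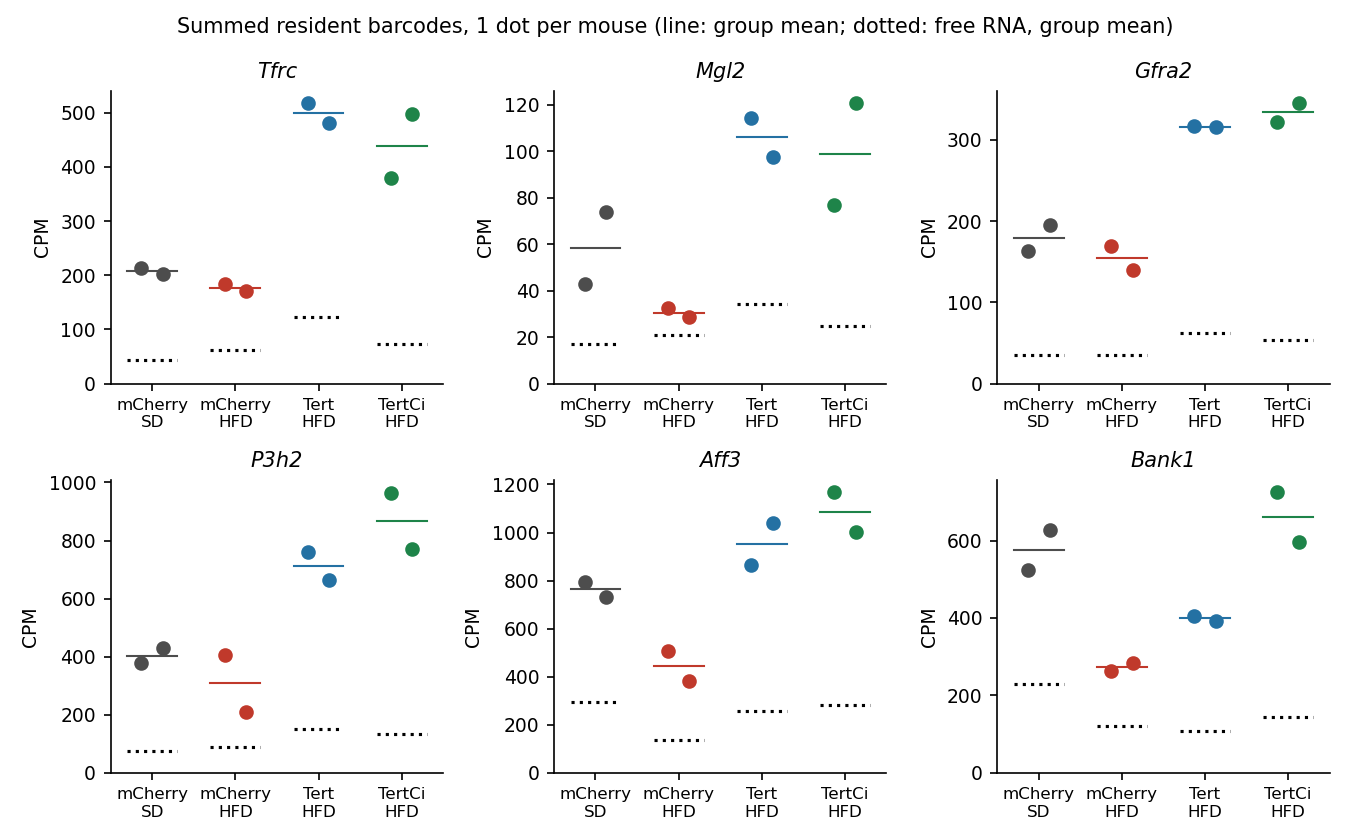
Level in members (y axes, CPM) of Tfrc, Mgl2, Gfra2, P3h2, Aff3 and Bank1, 1 point per mouse, with solid lines at group means and dotted lines at the mean level in free RNA. In the Tfrc panel the 4 Tert HFD and TertCi HFD mice, at 379 to 517 CPM, lie above the 4 other mice, at 170.5 to 213 CPM.

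Further genes were called for TertCi and not for Tert, among them Ctnnd2 (1.56 ± 0.42, adjusted p = 0.0218), Diras2 (1.46 ± 0.33, adjusted p = 0.00836) and Foxred2 (1.43 ± 0.44, adjusted p = 0.0408). The call of Ctnnd2 was lost without TertCi HFD rep138 (1.29) or mCherry HFD rep128 (1.25), and that of Foxred2 without either Tert HFD mouse (1.43 and 1.43), TertCi HFD rep138 (0.98) or either mCherry HFD mouse (2.45 and 1.12). Ctnnd2 averaged 19.4, 9.15, 8.19 and 25.0 CPM in members by group, against 26.6, 9.08, 9.32 and 7.11 CPM in free RNA. It lay clearly above free RNA only under TertCi HFD, the group through which it was chosen. Sema6d, a transmembrane guidance protein, was at 139 and 167 CPM under mCherry SD, 119 and 92.0 under mCherry HFD, 180.2 and 97.5 under Tert HFD and 277 and 209.9 under TertCi HFD. It changed by 1.19 ± 0.24 (adjusted p = 0.00699) with TertCi and 0.49 ± 0.25 (adjusted p = 0.276) with Tert, with Tert HFD rep136 close to the mCherry HFD mice. Celf4, an RNA-binding protein, was at 99.3 and 140.4 CPM under mCherry SD, 86.5 and 53.8 under mCherry HFD, 117 and 97.5 under Tert HFD and 203 and 136.1 under TertCi HFD, with 1.24 ± 0.26 (adjusted p = 0.00839) for TertCi and 0.61 ± 0.28 (adjusted p = 0.213) for Tert. Both TertCi calls were lost without TertCi HFD rep138, at 0.97 for Sema6d and 0.92 for Celf4. Ciita was at 92.3 and 135.7 CPM under mCherry SD, 135 and 88.6 under mCherry HFD, 185 and 229 under Tert HFD and 185 and 292 under TertCi HFD, with 1.06 ± 0.28 (adjusted p = 0.0253) for TertCi and 0.83 ± 0.29 (adjusted p = 0.11) for Tert. Its TertCi call was lost without TertCi HFD rep140 (0.69) or mCherry HFD rep129 (0.81), and in members without Vsig4.

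Between Tert HFD and TertCi HFD edgeR called 0 of 13602 genes (0% called), with 577 at an unadjusted p below 0.05, and DESeq2 called 0, with 200 at an unadjusted p below 0.05. Levels of the 2 groups did not overlap for 3996 genes (29.4%). The difference of Tert over TertCi was 0.20 ± 0.16 (adjusted p = 1) for Tfrc and -0.08 ± 0.16 (adjusted p = 1) for Gfra2. It was -0.73 ± 0.15 (adjusted p = 0.674) for Bank1, 0.98 ± 0.25 (adjusted p = 0.946) for Hpse and 1.58 ± 0.48 (adjusted p = 1) for Ccl8. None of these passed the test, which does not show that the alleles act alike. Tert HFD rep136 rested on 120 members, and for Ccl8 it lay below both TertCi HFD mice while rep134 lay above them.

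The wider programmes of these macrophages were followed through gene lists, counted beside the shares of all tested genes given above. A gene that passed the low-count filter only through the group where it was high had to differ, so the counts describe the genes tested. All 22 listed resident genes other than those of the rule were tested. Of these 7 rose and 0 fell with diet, 2 rose and 1 fell with Tert, and 2 rose and 2 fell with TertCi. Selenop, the plasma selenium carrier, was at 323 and 324 CPM under mCherry SD, 1105 and 649 under mCherry HFD, 833 and 639 under Tert HFD and 1051 and 589 under TertCi HFD, a diet change of 1.45 ± 0.33 (adjusted p = 0.0142). Free RNA held Selenop at 91.8, 595, 249 and 176 CPM by group, and after subtraction the diet change was 0.898, not called. Clec10a, a galactose-type lectin, was at 115 and 117 CPM under mCherry SD, 268 and 204 under mCherry HFD, 320.5 and 229 under Tert HFD and 207 and 162 under TertCi HFD, a diet change of 1.04 ± 0.20 (adjusted p = 0.00187). Folr2 was at 37.7 and 45.2 CPM under mCherry SD, 98.1 and 67.9 under mCherry HFD, 71.2 and 43.0 under Tert HFD and 68.0 and 41.7 under TertCi HFD, a diet change of 1.02 ± 0.28 (adjusted p = 0.0165), and its free RNA went from 13.5 to 78.0 CPM. The diet call of Selenop was lost without mCherry HFD rep128 (1.01) or either mCherry SD mouse (1.44 and 1.42) and that of Folr2 without mCherry HFD rep128 (0.70) or mCherry SD rep144 (0.90).

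Igf1, insulin-like growth factor 1, was at 531 and 534 CPM under mCherry SD, 427 and 467 under mCherry HFD, 851 and 579 under Tert HFD and 593 and 819 under TertCi HFD. Its changes were 0.70 ± 0.19 (adjusted p = 0.0403) for Tert, 0.66 ± 0.19 (adjusted p = 0.0291) for TertCi and -0.25 ± 0.19 (adjusted p = 0.345) for diet. The Tert call of Igf1 was lost without Tert HFD rep134 (0.38) or either mCherry HFD mouse (0.64 and 0.76), and the TertCi call without TertCi HFD rep140 (0.39) or either mCherry HFD mouse (0.60 and 0.72). Each of these Igf1 calls was lost in 9 of 20 settings. Both were lost at a minimum of 2000 UMIs, with 3 resident genes required, without TMM scaling, by DESeq2 and after subtraction of free RNA. The Tert call was lost also without members that held large peritoneal markers, and the TertCi call with a UMI minimum set per library. In those settings the changes stayed above 0, at 0.55 or more for Tert and 0.42 or more for TertCi. Ednrb, which was high in members against other macrophages, stood at 384 and 508 CPM under mCherry SD, 531 and 637 under mCherry HFD, 439 and 137.6 under Tert HFD and 483 and 223 under TertCi HFD. It passed the test in none of the comparisons, and 1 mouse in each of the Tert HFD and TertCi HFD groups was low. Stab1, Pf4, Maf and Gas6 also passed the test in none.

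Of 20 listed genes of scavenging and uptake of dying cells 15 were tested, and 4 rose and 1 fell with diet, 0 rose and 2 fell with Tert, and 2 rose and 2 fell with TertCi. Lrp1, a receptor for many ligands including haem bound to haemopexin, changed by 0.67 ± 0.16 (adjusted p = 0.00814) with diet, -0.66 ± 0.17 (adjusted p = 0.0302) with Tert and -0.81 ± 0.16 (adjusted p = 0.00496) with TertCi, of which subtraction of free RNA left -0.32 with each allele, not called. Itgav, the integrin alpha V chain that binds bridges to dying cells, changed by 0.99 ± 0.20 (adjusted p = 0.00319), -1.06 ± 0.21 (adjusted p = 0.0103) and -0.82 ± 0.20 (adjusted p = 0.0144). Colec12 went the other way, with -0.65 ± 0.17 (adjusted p = 0.0134) for diet and 0.58 ± 0.17 (adjusted p = 0.0329) for TertCi. Without mCherry HFD rep128 each of these calls was lost but the diet call of Itgav.

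Of 17 genes of iron and haem handling, all tested, 4 rose and 0 fell with diet, while 1 rose and 3 fell with Tert and likewise with TertCi. Tfrc was the 1 that rose with each allele. The ferritin chain Fth1, which stores iron, was at 7.45 and 18.0 CPM under mCherry SD, 200.1 and 189.6 under mCherry HFD, 35.2 and 17.2 under Tert HFD and 32.4 and 8.47 under TertCi HFD. It changed by 3.87 ± 0.58 (adjusted p = 0.00305) with diet, -2.63 ± 0.56 (adjusted p = 0.0338) with Tert and -3.11 ± 0.54 (adjusted p = 0.00912) with TertCi. In free RNA Fth1 averaged 21.7, 1022, 73.6 and 54.4 CPM by group, above the members in each, and moved with them. The Tert call of Fth1 was lost without either Tert HFD mouse (-3.50 and -2.47) or either mCherry HFD mouse (-2.61 and -2.69), and the TertCi call without either mCherry HFD mouse (-3.09 and -3.16). After subtraction of free RNA, the 1 setting that ended the diet call, Fth1 changed by 1.24 (adjusted p = 0.904) with diet, -8.13 (adjusted p = 0.999) with Tert and -0.42 (adjusted p = 1) with TertCi. Slc11a1, the phagosomal metal pump NRAMP1, rose with diet by 1.64 ± 0.37 (adjusted p = 0.00715), a call lost without mCherry HFD rep128 (1.17) or mCherry SD rep144 (1.39), and by 0.36 (adjusted p = 0.902) after subtraction. Of 8 listed MHC class II genes 7 were tested. H2-Ab1 rose with diet by 1.07 ± 0.32 (adjusted p = 0.0282), but its change was -0.58 after subtraction of free RNA, and the call was lost without mCherry HFD rep128 (0.70) or mCherry SD rep144 (0.74) and at a minimum of 2000 UMIs. Ciita rose with TertCi.

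The lipid-associated list had the highest share of calls among the lists of programmes in each of the 3 comparisons. Of 22 listed genes of the lipid-associated programme 21 were tested, and 16 rose and 1 fell with diet, 0 rose and 9 fell with Tert, and 0 rose and 15 fell with TertCi. Their median log2 changes were 1.56, -0.92 and -1.54, against medians over all 13602 genes of 0.03, 0.02 and 0.01. Ctsl, the protease cathepsin L, was at 29.8 and 19.6 CPM under mCherry SD, 191 and 201 under mCherry HFD, 41.5 and 48.7 under Tert HFD and 29.4 and 20.0 under TertCi HFD. It changed by 3.01 ± 0.24 (adjusted p = 4.77e-06), -2.18 ± 0.25 (adjusted p = 0.000336) and -2.94 ± 0.24 (adjusted p = 1.56e-05) in the 3 comparisons, against 37.0, 650.0, 73.4 and 25.5 CPM in free RNA by group. Subtraction of free RNA was the 1 setting of 20 in which the calls of Ctsl were lost, and its changes were then 2.34 (adjusted p = 0.645) with diet, -0.064 (adjusted p = 0.999) with Tert and -0.22 (adjusted p = 1) with TertCi, so that both allele changes came close to 0. Lgals3, galectin 3, changed by 2.64 ± 0.22 (adjusted p = 6.2e-06), -1.11 ± 0.22 (adjusted p = 0.00882) and -1.89 ± 0.21 (adjusted p = 0.000147). Of 22 lysosome genes, all tested, 13 rose and 0 fell with diet, 0 rose and 5 fell with Tert, and 0 rose and 11 fell with TertCi. Free RNA held Lgals3 at 32.7, 863, 255 and 131 CPM by group, highest in the mCherry HFD libraries, where lipid-associated macrophages were most numerous. After subtraction of free RNA edgeR called none of the genes of these lists, and the part of that cell type was not tested.

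Of 14 listed complement genes 13 were tested, and 6 rose and 0 fell with diet, 0 were called with Tert, and 0 rose and 6 fell with TertCi, with median changes of 0.94, -0.46 and -0.56 for diet, Tert and TertCi. Of C1q, the recognition molecule of the classical pathway, C1qb stood at 36.7 and 71.8 CPM under mCherry SD, 237 and 199 under mCherry HFD, 111 and 40.1 under Tert HFD and 96.3 and 73.8 under TertCi HFD. The mCherry HFD mice were the highest. The diet change was 1.99 ± 0.40 (adjusted p = 0.00858) for C1qb, 1.31 ± 0.24 (adjusted p = 0.00178) for C1qa and 1.21 ± 0.22 (adjusted p = 0.00134) for C1qc, and the TertCi change of C1qb was -1.35 ± 0.39 (adjusted p = 0.0473), lost without either TertCi HFD mouse (-1.57 and -1.20) or either mCherry HFD mouse (-1.21 and -1.47). C3ar1, the receptor for the fragment C3a, rose with diet by 1.34 ± 0.22 (adjusted p = 0.000652), and C5ar1, the receptor for C5a, by 1.28 ± 0.32 (adjusted p = 0.0171). Free RNA held C1qb at 17.0, 304, 57.2 and 45.7 CPM by group, highest in the same libraries. The diet calls of C1qb and C5ar1 were lost without mCherry HFD rep128, at 1.85 and 1.27, and that of C5ar1 without rep129 too, at 1.30. After subtraction of free RNA the diet changes were 1.06 for C1qb, 0.44 for C1qa, 0.57 for C3ar1 and 0.71 for C5ar1, none of them called.

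Of 22 listed inflammatory genes 15 were tested, and 4 rose and 0 fell with diet, 0 rose and 2 fell with Tert, and 0 rose and 3 fell with TertCi, Ccl8 among them in each case. Of 20 listed interferon-response genes 14 were tested, and 3 rose and 0 fell with diet, 0 were called with Tert, and 2 fell with TertCi. Of 20 listed genes of alternative activation 18 were tested, and 5 rose and 1 fell with diet, 0 were called with Tert, and 1 rose and 2 fell with TertCi. These shares lay near those of all genes for TertCi and above them for rises with diet. Of 18 listed cell cycle genes 13 were tested, and 8 rose and 0 fell with diet, 0 were called with Tert, and 0 rose and 4 fell with TertCi. Their median changes were 1.70, -0.84 and -1.18 for diet, Tert and TertCi. Mki67, a marker of dividing cells, was at 2.48 and 3.80 CPM under mCherry SD, 14.7 and 17.9 under mCherry HFD, 7.44 and 2.87 under Tert HFD and 6.39 and 3.63 under TertCi HFD, a diet change of 2.29 ± 0.45 (adjusted p = 0.00227). Free RNA held Mki67 at 1.93, 15.8, 7.40 and 4.13 CPM, near the level in members. Of 18 listed genes of p53 and cell cycle arrest 16 were tested, and 2 rose and 1 fell with diet, 0 were called with Tert and 1 fell with TertCi. Cdkn1a was one that rose with diet (2.57 ± 0.63, adjusted p = 0.00881), on 3 and 2 UMIs in the members of the mCherry SD mice. That call was lost without mCherry SD rep146 (1.94) and by DESeq2, and free RNA held Cdkn1a at 2.58, 27.2, 9.44 and 8.36 CPM by group, above the mean of the members in each group.

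Of 17 listed growth and vascular factors outside the rule's genes 15 were tested, and 2 rose and 5 fell with diet, 3 rose and 1 fell with Tert, and 4 rose and 2 fell with TertCi. Vegfa, the main growth factor of blood vessels, was at 119 and 98.1 CPM under mCherry SD, 13.04 and 8.97 under mCherry HFD, 49.5 and 166 under Tert HFD and 57.7 and 84.1 under TertCi HFD. It changed by -3.20 ± 0.55 (adjusted p = 0.0052) with diet, 2.88 ± 0.58 (adjusted p = 0.0292) with Tert and 2.56 ± 0.55 (adjusted p = 0.0189) with TertCi. Vegfa stood higher in free RNA, at 283, 123, 246 and 305 CPM by group, than in members, and after its subtraction Vegfa no longer passed the filter on low counts. Sema4d, a semaphorin of leukocytes, went the other way, with 1.74 ± 0.41 (adjusted p = 0.00743), -1.60 ± 0.42 (adjusted p = 0.0348) and -1.61 ± 0.40 (adjusted p = 0.0147). Without mCherry HFD rep128 each of these 6 calls was lost. Of 24 listed macrophage transcription factors 23 were tested, and 3 rose and 2 fell with diet, 0 rose and 1 fell with Tert, and 3 rose and 2 fell with TertCi. Irf8, which directs monocyte and macrophage development, rose with diet by 1.35 ± 0.25 (adjusted p = 0.00168), and by 0.597 (adjusted p = 0.642) after subtraction. Of 20 listed genes of cholesterol and lipid handling 19 were tested, and 6 rose and 4 fell with diet, 1 rose and 0 fell with Tert, and 3 rose and 6 fell with TertCi.

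Markers of other cells moved in the same members. Of 10 adipocyte markers, all tested and none at 0 in any mouse, 9 fell and 0 rose with diet, 6 rose with Tert and 7 rose with TertCi, with none falling in either. Of 8 endothelial markers, likewise all tested and none at 0, 4 fell with diet, 5 rose with Tert and 4 rose with TertCi, with none moving the other way. Their summed level in members was 215 and 249 CPM under mCherry SD, 114 and 137 under mCherry HFD, 359 and 355 under Tert HFD, and 240.5 and 350.2 under TertCi HFD. Of 8 listed large peritoneal macrophage markers 6 were tested, and 5 fell and 0 rose with diet, with summed levels of 175 and 186 CPM in the mCherry SD and 58.6 to 97.1 CPM in all other mice. Each of these 3 sums was higher in the free RNA of the library than in the members, except large peritoneal markers in mCherry SD rep146 (186 CPM in members, 156 CPM in free RNA). Of 10 progenitor markers, all tested, 2 fell with diet, 1 rose with Tert, and 1 rose and 1 fell with TertCi. Of 8 listed mesothelial markers 7 were tested, and 2 fell with diet, Msln and Bnc1, with a median change of -1.61 and none called for either allele. Their sum was 452 and 268 CPM under mCherry SD, 71.2 and 193 under mCherry HFD, 141 and 22.9 under Tert HFD, and 76.7 and 100.4 under TertCi HFD. Of 8 monocyte markers 5 were tested, and with diet Ccr2 rose by 1.29 ± 0.29 (adjusted p = 0.00659) and Vcan fell by 1.25, with no call for either allele. Of 8 dendritic cell markers 6 were tested, of which Zbtb46 fell with diet by 0.70 and Siglech rose with TertCi by 1.09. Of 6 pericyte markers 5 were tested, and Pdgfrb fell with TertCi by 1.17. Of 6 lymphatic endothelial markers 4 were tested, and Reln rose with diet by 2.07. Without mCherry HFD rep128 the calls of Msln, Bnc1, Ccr2, Zbtb46, Siglech, Pdgfrb and Reln were lost, and all of these but that of Ccr2 were lost by DESeq2. The sums ran from 80.3 to 148 CPM for monocyte, 137.4 to 243 for dendritic, 33.8 to 79.2 for pericyte and 2.87 to 30.5 for lymphatic markers over the mice. Tert HFD rep136 had the most markers at 0, with 3 mesothelial, 4 monocyte, 3 dendritic, 2 pericyte and 5 lymphatic. The sum in free RNA was above that in members for each of these 5 lists and each mouse, except for lymphatic markers in TertCi HFD rep140. No marker of T and NK cells or of mast cells and neutrophils was called, with sums of 20.1 to 60.5 CPM and 2.74 to 20.1 CPM. Their part in the results was not tested.

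**Figure D5:**
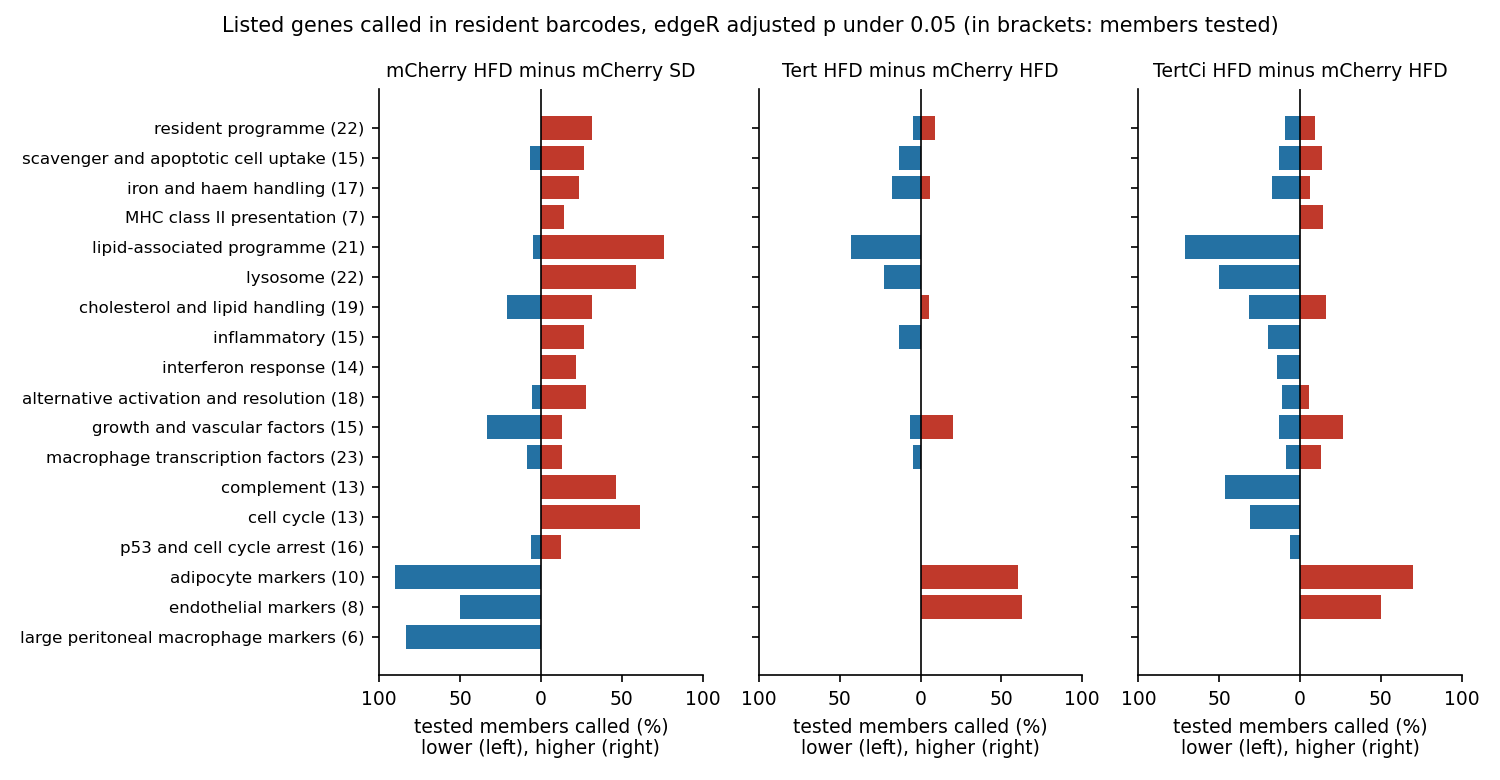
Percent of the tested members of each gene list that were called lower (left of the centre line) or higher (right) in each of the 3 comparisons with the mCherry HFD mice, for 18 lists (x axes, percent). The lipid-associated, lysosome and complement lists lean right with diet and left with TertCi, and the adipocyte list leans the other way.

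The comparisons were set against the same comparisons in the lipid-associated macrophages of the same mice, which were chosen by at least 2 of the 6 lipid-associated genes and a higher sum of them than of the resident genes. An edgeR fit with a term for the mouse tested whether a change differed between the 2 kinds of macrophage, over 15957 genes in 7 mice, since mCherry SD rep144 had 7 lipid-associated barcodes. The diet change differed for 64 genes (0.401%), the Tert change for 242 (1.52%), the TertCi change for 667 (4.18%) and the Tert against TertCi difference for 77 (0.483%). The mCherry SD group rested on 1 mouse here, with 14 lipid-associated barcodes, and the diet count assumes that this mouse varies like those of the other groups. The p-values of this edgeR fit were close to those of a normal distribution for the difference over its SE. They made almost no allowance for the small number of mice and may be too small. They cannot be set beside those of the fit of members alone.

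Igf1, whose calls in members depended on the setting, differed for both alleles. On the scale of that fit, its level in members was 458 and 525 CPM under mCherry HFD, 862 and 605 under Tert HFD and 597 and 832 under TertCi HFD. In lipid-associated macrophages it was 407 and 469.5, 474 and 197, and 329 and 395 CPM in the same order. The change in members exceeded that in lipid-associated macrophages by 0.86 ± 0.16 (adjusted p = 2.28e-05) for Tert and 0.79 ± 0.16 (adjusted p = 3.89e-05) for TertCi. Bank1 went from 283 and 319 CPM in the mCherry HFD to 731 and 607 in the TertCi HFD mice in members, and from 72.8 and 135 to 90.3 and 84.4 CPM in lipid-associated macrophages, a difference of 1.31 ± 0.19 (adjusted p = 2.71e-09). P3h2 went from 434 and 237 to 971 and 784 CPM in members and from 89.8 and 80.3 to 109 and 84.4 CPM in lipid-associated macrophages, a TertCi difference of 1.18 ± 0.19 (adjusted p = 9.39e-08). For these 3 genes the members of both TertCi HFD mice lay above those of both mCherry HFD mice, whereas the lipid-associated levels of Bank1 overlapped between the groups and those of Igf1 were lower with TertCi. Hpse went from 69.7 and 92.2 to 26.2 and 27.7 CPM in members and from 9.45 and 17.4 to 16.7 and 9.05 CPM in lipid-associated macrophages, a TertCi difference of -1.89 ± 0.46 (adjusted p = 0.00205). In the mCherry HFD and TertCi HFD libraries free RNA averaged 121 and 145 CPM for Bank1, 89.0 and 135 for P3h2 and 18.7 and 6.41 for Hpse. The lipid-associated levels of Bank1 and P3h2, and those of Hpse under mCherry HFD, lay near or below these. The part of free RNA in these differences was not tested.

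Gfra2 rose with Tert in members from 181 and 157 to 322 and 329 CPM. In lipid-associated macrophages, where it was lower throughout, it went from 27.3 and 30.2 to 86.8 and 88.8 CPM, and the change in members was the smaller, with a log2 difference of -0.73 ± 0.19 (adjusted p = 0.0146). For Tfrc the difference was -0.40 ± 0.19 (adjusted p = 0.496) with Tert and 0.40 ± 0.23 (adjusted p = 0.521) with TertCi, neither called. Its level went from 197 and 192 CPM in members of the mCherry HFD mice to 524 and 503 in the Tert HFD mice, and in lipid-associated macrophages from 28.9 and 32.1 to 102 and 123 CPM. The Tfrc rise with the modified alleles was thus not shown to be particular to the resident members. In the mCherry HFD and Tert HFD libraries free RNA averaged 35.6 and 62.1 CPM for Gfra2 and 61.1 and 123 CPM for Tfrc. Its part in these values was not tested.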

How the data were processed

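The deposited files hold whole-number UMI counts per gene and barcode for 8 libraries, 1 per mouse, written by Cell Ranger 7.1.0 per the file headers, with 56749 features of which each names a gene. The submitters' processing notes name Cell Ranger 5.0.1, bcl2fastq 2.20.0 and mm39, and which version made the counts was not settled. Per the labels, mice were handled in batches of 2 in random order, and which mice shared a batch was not used here because no source used here gives it.

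Barcodes needed 1000 UMIs, 300 genes and at most 5% mitochondrial UMIs, and members were chosen by 5 resident genes as the report states. The members and all gene lists were chosen with earlier results of these data known. UMIs were summed over members per mouse and tested with edgeR 4.0.16 (quasi-likelihood, robust, TMM scaling, filterByExpr, R 4.3.3, limma 3.58.1), with Benjamini-Hochberg adjustment over all genes. Shares of barcodes were compared by an exact permutation test over all arrangements of the mice, with scipy 1.17.1, numpy 2.4.6, pandas 2.3.3 and Python 3.11.15. The difference between members and lipid-associated macrophages was a class-by-group term with a term per mouse, using mice with at least 10 barcodes of each class. Free RNA was read from barcodes of at most 100 UMIs. The tests across genes were checked on simulated data, where false calls made up a larger share of the calls than the adjusted threshold of 0.05 allows and most of the smaller changes set there were missed.

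Named genes were the 12 with the largest change per direction and comparison among called genes at 20 CPM or more in the higher group and 3 times free RNA, with groups that did not overlap, leaving out names that start with Gm and a digit, mt-, Rpl or Rps, end in Rik or hold -rs or -ps, while transcripts with an Ensembl ID alone stayed in. From each list up to 4 called genes were named, and genes outside this rule, such as Tlr8, Ms4a7, Ms4a6d, Bcor, Dse and Sema6d, were chosen after their values were seen. For the gene calls 22 other settings were tried, of which 4 were chosen after seeing the data, and DESeq2 1.42.0 was 1 of them. No doublet caller was run. Values of some single genes are not reported here. The replicates are labelled as separate mice.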

Additional observations from a re-analysis of the deposited data

Results flagged for a closer look

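Some genes named in the report changed by a different amount in the resident members than in the lipid-associated macrophages of the same mice, tested by the class-by-group term of edgeR over 15957 genes in 7 mice. Values are log2 differences, members minus lipid-associated, with SE.

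For Tert HFD against mCherry HFD the members changed by less, or further downwards, in 4 of 7 such genes. These were Hsf3 at -1.18 ± 0.30 (adjusted p = 0.0103), Sema4d at -1.18 ± 0.25 (adjusted p = 0.000433), Ednrb at -0.80 ± 0.21 (adjusted p = 0.015) and Gfra2 at -0.73 ± 0.19 (adjusted p = 0.0146). The members lay higher for Igf1 at 0.86 ± 0.16 (adjusted p = 2.28e-05), Vegfa at 1.34 ± 0.25 (adjusted p = 2.44e-05) and ENSMUSG00000120253 at 1.67 ± 0.47 (adjusted p = 0.03). Over the mice of all groups, Sema4d and Vegfa averaged 17.9 and 72.4 CPM in members, below free RNA at 32.1 and 239 CPM. The part of free RNA in these Tert differences was not tested.

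For TertCi HFD against mCherry HFD the difference was negative for Hpse at -1.89 ± 0.46 (adjusted p = 0.00205), Sema4d at -1.39 ± 0.28 (adjusted p = 4.91e-05), Arsg at -1.31 ± 0.39 (adjusted p = 0.0259) and Aff3 at -0.71 ± 0.17 (adjusted p = 0.00108). It was positive for the growth factors Vegfa at 1.89 ± 0.29 (adjusted p = 1.8e-08) and Igf1 at 0.79 ± 0.16 (adjusted p = 3.89e-05). It was positive also for Selenop at 1.12 ± 0.17 (adjusted p = 7.18e-09), Ednrb at 1.30 ± 0.39 (adjusted p = 0.0332), Clec10a at 1.00 ± 0.27 (adjusted p = 0.00884) and the transcription factor Maf at 0.88 ± 0.18 (adjusted p = 5.9e-05), although the TertCi changes of Selenop and Clec10a in members were -0.10 and -0.36 and not called. The others were Bank1 at 1.31 ± 0.19 (adjusted p = 2.71e-09), P3h2 at 1.18 ± 0.19 (adjusted p = 9.39e-08), Sema6d at 1.58 ± 0.28 (adjusted p = 1.45e-06), Celf4 at 1.02 ± 0.20 (adjusted p = 4.42e-05), Wwp1 at 0.82 ± 0.14 (adjusted p = 1.59e-06) and ENSMUSG00000120253 at 2.71 ± 0.87 (adjusted p = 0.0441). The part of free RNA in these differences was not tested.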

How the results depend on the processing

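The number of genes called was 3853 for diet, 1186 for Tert, 2652 for TertCi and 0 for Tert against TertCi. In that order it was 912, 548, 1151 and 2 in members without a UMI of the 9 other-lineage genes, and 1577, 687, 1354 and 1 with members thinned to 1000 UMIs. DESeq2 called 2138, 664 and 1187 in the first 3. With at least 3 resident genes required the TertCi count was 1699. Without a filter on low counts it was 2037 for Tert and 41 for Tert against TertCi, and with only the groups compared 2257 for Tert. Without single mice the counts ran from 1326 to 4341 for diet, 117 to 1532 for Tert, 568 to 2999 for TertCi and 0 for Tert against TertCi. The cause was not tested.

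In settings chosen after seeing the data, subtracting free RNA left 0 calls in each comparison, as the report gives. Testing only the 516 genes at 2 times free RNA left 63, 20 and 80 without and 63, 32 and 78 with subtraction, and fewer genes were tested there. Of the 63 diet calls, 57 were higher and 6 lower without subtraction, against 28 higher and 35 lower with it. The median diet change of the 516 genes went from 0.21 to -0.19. After subtraction over all genes, the sign turned for Ctsd (0.16) and Tyrobp (0.0431) with Tert, for Ctsz with TertCi (0.19), and for Bmper (1.62), Cd200r1 (-0.0347), Ctsz (-0.0515), H2-Ab1 (-0.58) and Pparg (11.73) with diet. None of the named genes reversed in another setting. Of their calls, 66 held without mCherry HFD rep128 and 127 without rep129, and 59 were lost by DESeq2. The exact permutation p of the share of members among macrophages was 0.0571 with a UMI minimum per library and 0.305 with 3 resident genes required.

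No paired analysis was possible because the replicate numbers differ between the groups. Depth limits the Tert HFD group most, since rep136 rested on 120 members. Sparse genes such as Cdkn1a rest on few UMIs, and intervals between mice rest on 2 mice a group.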
